A study of Mus musculus with 8 samples.

Results

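The collagen and lysyl oxidase genes of mouse liver were followed across loss of Dicer1 and exposure to a DNA-alkylating mutagen. Members were all genes whose name on the array was Col, digits, a and digits, or was Lox alone or Lox with l and a digit. The array carried 45 such genes on 85 probes, of 27671 genes in all. Of these, 35 genes on 56 probes were well above background on both arrays of at least 1 group and are called measured here, among 18137 genes measured in the whole series. The 10 members without such a probe were Col9a1, Col9a3, Col10a1, Col12a1, Col17a1, Col19a1, Col23a1, Col24a1, Col25a1 and Col28a1, and no fold is given for them. Genes that the array listed under older names, such as Emid2 for Col26a1, were not members.

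Knockout mice (KO) were C57BL/6 animals of the genotype Albumin-Cre;Dicer1loxP/loxP, in which the albumin promoter drives Cre recombinase in hepatocytes and removes Dicer1, the ribonuclease that matures microRNAs. Controls (WT) were Dicer1loxP/loxP littermates without Cre, so both genotypes carried the floxed allele and the deletion was not aimed at the mesenchymal cells of the liver. Mice of both genotypes, labelled female and 6 months old, received 1 intraperitoneal injection of 2 ml/kg, holding either the alkylating agent N-ethyl-N-nitrosourea (ENU) at 120 mg/kg or only the vehicle dimethylsulfoxide. Livers were taken 15 days after ENU, and the day is not given for vehicle. Each of the 4 groups had 2 arrays, a and b, on an Agilent 1-colour mouse array. How many mice each RNA came from is not stated.

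Collagens are the main structural proteins of the extracellular matrix, built as triple helices of alpha chains. Fibrillar collagens form the cables of scar tissue, type IV collagens form the sheet of basement membranes, and other classes link, decorate or anchor these structures. Lysyl oxidases oxidise lysines on collagen and elastin so that the chains become covalently crosslinked, which makes the matrix stiffer and harder to degrade. In liver most fibrillar collagen is made by stellate cells and portal fibroblasts, and its build-up is the hallmark of fibrosis.

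Values are the log2 processed signal of a probe minus the 75th percentile of its array, called the scaled log2 signal. Arrays a and b of a group differed by about the spot noise: the median absolute standardised difference was 0.669 to 0.844 within groups, 0.688 is what spot noise alone gives, and arrays of different groups gave 11.8 to 21.9. They were therefore counted as 1 RNA sample, which leaves 4 RNA samples. KO was compared with WT over both treatments with limma and Benjamini-Hochberg adjustment over all measured genes, and rose and fell are used only for adjusted p under 0.05 in that fit. Its p-values measure only the spread between these 4 RNA samples. Each gene's variance was moderated toward that of all measured genes, with 2.91 prior against 1 residual degree of freedom. The SEs and p-values of a gene are therefore in large part pooled. Differences within 1 treatment or 1 genotype rest on 1 RNA sample per group and have no replicate check, so they are described by their size, with 2-fold as the mark. The 75th percentile signal that each array was scaled by was 437 to 524 on WT and 629 to 681 on KO arrays, without overlap. The scanner program's test against background was passed by 54.7% to 64.1% of spots on WT and 64.4% to 69.3% on KO arrays, also without overlap. The filter on dim probes rests on that test. Of all spots 0 were saturated. The scanner program's quality summary read ExtractionEvaluate on all 4 vehicle arrays and ExtractionInRange on all 4 ENU arrays.

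All ENU arrays lay on 1 slide and all vehicle arrays on another, so ENU and slide cannot be told apart. KO and WT arrays took the same positions on both slides, and genotype and position likewise cannot be told apart. A Dicer1 probe was 5.50-fold lower in KO than in WT with vehicle and 2.85-fold with ENU. A second Dicer1 probe was 1.41-fold and 1.19-fold lower, and where either lies relative to the deleted part is not given in the sources used here. The liver marker Alb was well above background on all 8 arrays, 1.5-fold lower in KO than in WT with vehicle and 1.45-fold lower with ENU, and was not called. Probes of the Y-linked genes Ddx3y, Eif2s3y, Kdm5d and Uty were above background on all 8 arrays although the mice are labelled female.

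Most measured collagen and lysyl oxidase genes were more abundant in KO liver. Of the 35, 21 rose, 4 fell and 10 were not called, where 16.9% of all measured genes rose and 15.3% fell. The median KO minus WT difference of the members was 1.43 on vehicle and 1.04 after ENU on the log2 scale, or 1.12 and 0.97 with dim genes at their bounds, against -0.14 and -0.10 over all measured genes. Of the 21 that rose, 5 passed the filter only through KO arrays (Col4a3, Col4a5, Col8a2, Col22a1 and Lox) and therefore had to differ. Among the 29 members well above background on all 8 arrays 16 rose and 4 fell, where 11.6% and 17.2% of such genes did. Both KO arrays lay above both WT arrays in both treatments for 21 members and below them for 7. Because arrays a and b count as 1 RNA sample, small differences also separate the arrays. The same share over all genes is not given, so these counts show nothing particular to the members. In bulk liver RNA, a change in the number of cells of a type and a change in RNA per cell cannot be told apart.

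**Figure D1:**
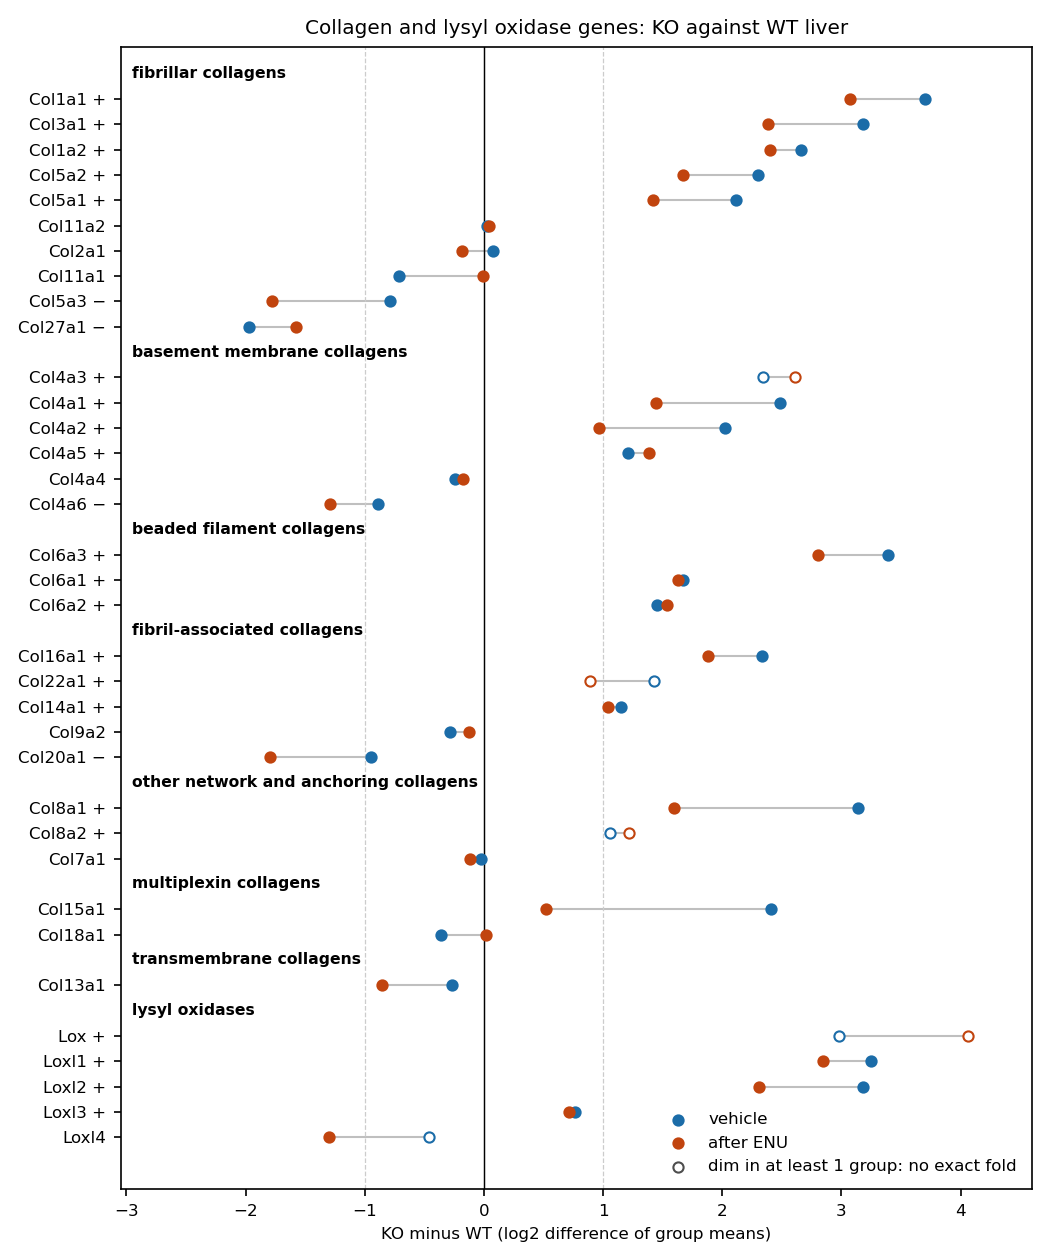
KO minus WT log2 difference of group means for the 35 measured members, grouped by class, on vehicle (blue) and after ENU (orange); a plus or minus after the name marks a gene that rose or fell in limma, open circles mark a comparison with a dim group, and dashed lines mark 2-fold. Most points lie to the right of 0, with Col1a1 at 3.70 and 3.07, while Col27a1, Col20a1, Col5a3 and Col4a6 lie to the left.

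The fibrillar collagens carried the largest measured difference. Of 10 measured, the major chains of types I, III and V rose (Col1a1, Col1a2, Col3a1, Col5a1 and Col5a2), Col27a1 and Col5a3 fell, and Col2a1, Col11a1 and Col11a2 were not called. Their summed signal, in units of each array's 75th percentile signal, was 15.7 to 15.8 on the WT vehicle arrays, 20.4 to 21.1 on WT ENU, 83.1 to 83.6 on KO vehicle and 81.3 to 81.4 on KO ENU.

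Col1a1 encodes the alpha 1 chain of type I collagen, the principal collagen of scar. Its scaled log2 signal was -0.17 and -0.18 on the WT vehicle arrays, -0.01 and -0.01 on WT ENU, 3.52 and 3.52 on KO vehicle, and 3.06 and 3.07 on KO ENU. All 4 KO arrays lay far above all 4 WT arrays, and the arrays of a group were nearly identical. Col1a1 was 13.0-fold higher in KO than in WT with vehicle and 8.42-fold with ENU, a mean log2 difference of 3.39 ± 0.24 (SE, 4 RNA samples; limma adjusted p = 0.0100). The probe lies at chr11:95060800-95060859 on the plus strand of mm7, the build of the array files, for which no annotation was used here, so exon or untranslated region is not given.

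Col1a2, the partner chain of Col1a1 in type I collagen, had 2.34 and 2.36 in WT vehicle, 2.67 and 2.73 in WT ENU, 4.97 and 5.04 in KO vehicle, and 5.10 and 5.09 in KO ENU. The genotypes did not overlap, and Col1a2 was 6.31-fold and 5.27-fold higher in KO (limma adjusted p = 0.0103). Both chains of type I collagen thus rose. Col3a1, which forms the fine reticular fibres found with type I collagen, had 1.92 and 1.88 in WT vehicle, 2.64 and 2.71 in WT ENU, 5.10 and 5.05 in KO vehicle, and 5.05 and 5.06 in KO ENU. In KO it was 9.08-fold higher with vehicle and 5.22-fold with ENU (limma adjusted p = 0.0121). Its ENU minus vehicle difference was -0.02 log2 units in KO and 0.77 in WT.

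Type V collagen is a minor partner that sits inside type I fibrils and regulates their diameter. Col5a1 had -1.21 and -1.26 in WT vehicle, -0.40 and -0.43 in WT ENU, 0.88 and 0.88 in KO vehicle, and 1.04 and 0.98 in KO ENU. Col5a2 had -2.34 and -2.29, then -1.08 and -1.11, then -0.09 and 0.06, and last 0.56 and 0.59, in the same order. KO and WT arrays did not overlap for either chain. Col5a1 was 4.34-fold and 2.68-fold higher in KO (limma adjusted p = 0.0190), and Col5a2 was 4.92-fold and 3.18-fold higher (limma adjusted p = 0.0153). A second Col5a1 probe was 1.96-fold and 1.69-fold higher.

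The remaining type V chain, Col5a3, went the other way. It had 1.95 and 1.95 in WT vehicle, 2.15 and 2.17 in WT ENU, 1.16 and 1.16 in KO vehicle, and 0.39 and 0.38 in KO ENU. KO arrays were below WT arrays in both treatments, 1.73-fold on vehicle and 3.43-fold after ENU (limma adjusted p = 0.0475). This call is close to the threshold and was lost under quantile normalization, without the filter on dim probes, and when KO ENU b, WT ENU a or b, or WT vehicle a or b was left out, with adjusted p of 0.0504 to 0.0798. The difference between Col5a3 and the other type V chains was not tested.

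Col27a1, a fibrillar collagen best known from cartilage, was the only member at least 2-fold lower in KO than in WT with vehicle. It had -0.04 and -0.06 in WT vehicle, -0.64 and -0.67 in WT ENU, -2.02 and -2.01 in KO vehicle, and -2.28 and -2.18 in KO ENU. It was 3.91-fold lower in KO than in WT with vehicle and 2.98-fold with ENU (limma adjusted p = 0.0144). A second probe was 5.58-fold and 3.32-fold lower, and another was 1.23-fold and 1.46-fold higher, so the fall holds for 2 of its 3 probes.

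The cartilage collagens Col2a1, Col11a1 and Col11a2 were above background on all 8 arrays and were not called. Col11a1 had KO minus WT differences of -0.71 and -0.01 log2 units (limma adjusted p = 0.322), and Col11a2 differed by 0.03 and 0.04 (0.896). Col2a1 had KO minus WT differences of 0.07 on vehicle and -0.18 after ENU on its brightest probe (limma adjusted p = 0.836). Its other probe, spotted 10 times and sharing 40 bases of position with the first, was 7.89-fold and 4.72-fold higher in KO. The probes of Col2a1 therefore give different answers for the same end of the gene, and no direction is given for it.

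**Figure D2:**
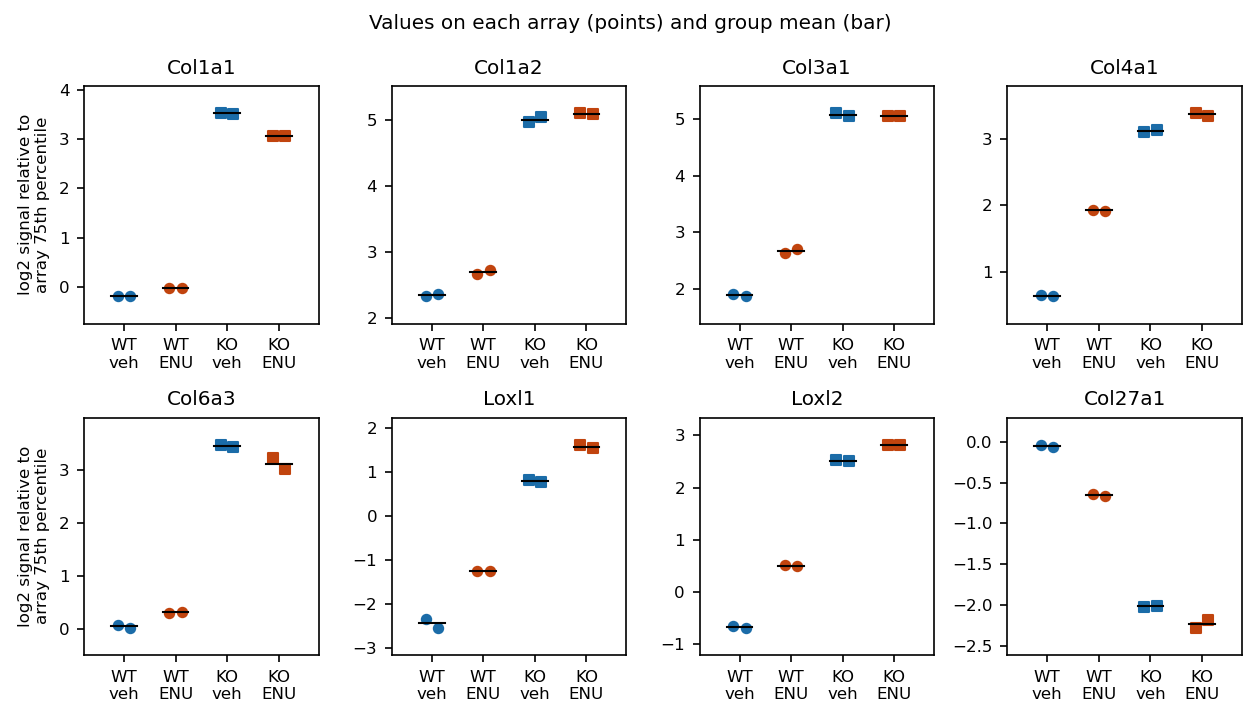
Scaled log2 signal of 8 members on each of the 8 arrays (points; circles WT, squares KO, blue vehicle, orange ENU) with the group mean (bar); each panel has its own axis. KO and WT do not overlap in any panel, and Col27a1 is the panel with KO below WT. The WT ENU arrays lie above the WT vehicle arrays in every panel except Col27a1, by the most for Col4a1, Loxl1 and Loxl2.

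Promoters were examined for members that moved together. The RefSeq promoter table (assembly GRCm38.p6) matched 33 of the 45 genes with 36 windows. The 250 bases before the start were searched on both strands for 4 motifs. The TATA box was searched as TATAAA. The CCAAT box was searched by its name's letters. The GC box, as bound by Sp1, was searched as GGGCGG. The AP-1 site was searched as TGANTCA. The motifs did not overlap in the windows printed. The GC box was in 55.6% of member windows and in 69.2% of the 13 windows of members that rose, against 32.7% of all 32851 windows. Those 13 windows belong to 12 of the 21 members that rose, and Col1a1, Col4a3, Col5a2, Col14a1, Col22a1, Lox, Loxl1, Loxl2 and Loxl3 had no window in the table. CCAAT was in 33.3%, 38.5% and 33.8%, TATAAA in 13.9%, 7.69% and 12.4%, and TGANTCA in 2.78%, 7.69% and 6.75%, in the same order. These shares are descriptions of letters in a window and were not tested. Col1a2, Col3a1 and Col5a1 are shown as fibrillar chains that rose and Col27a1 as one that fell, and Col6a3 is shown as the type VI chain with the largest fold. Each is the 250 bases before the start, read 5′ to 3′ on the gene's strand, with the searched motifs in capitals. They are chr6:4505368-4505617 (plus) for Col1a2, chr1:45311288-45311537 (plus) for Col3a1, chr2:27886175-27886424 (plus) for Col5a1, chr4:63215162-63215411 (plus) for Col27a1 and chr1:90843972-90844221 (minus) for Col6a3.
Col1a2: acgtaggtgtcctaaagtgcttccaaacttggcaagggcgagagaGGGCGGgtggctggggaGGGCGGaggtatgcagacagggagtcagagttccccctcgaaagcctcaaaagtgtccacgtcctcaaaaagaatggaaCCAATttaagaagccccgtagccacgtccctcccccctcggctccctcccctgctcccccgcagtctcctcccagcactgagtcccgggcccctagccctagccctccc
Col3a1: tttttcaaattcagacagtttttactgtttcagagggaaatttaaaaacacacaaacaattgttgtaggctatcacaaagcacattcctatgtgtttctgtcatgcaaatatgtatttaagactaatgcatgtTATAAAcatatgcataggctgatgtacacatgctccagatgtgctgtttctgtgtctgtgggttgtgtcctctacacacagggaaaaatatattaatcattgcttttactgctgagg
Col5a1: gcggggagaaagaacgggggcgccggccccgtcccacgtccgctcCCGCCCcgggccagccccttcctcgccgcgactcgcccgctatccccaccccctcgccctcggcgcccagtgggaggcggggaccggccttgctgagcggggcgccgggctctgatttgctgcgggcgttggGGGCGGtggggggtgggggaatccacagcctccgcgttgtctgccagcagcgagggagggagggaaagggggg
Col27a1: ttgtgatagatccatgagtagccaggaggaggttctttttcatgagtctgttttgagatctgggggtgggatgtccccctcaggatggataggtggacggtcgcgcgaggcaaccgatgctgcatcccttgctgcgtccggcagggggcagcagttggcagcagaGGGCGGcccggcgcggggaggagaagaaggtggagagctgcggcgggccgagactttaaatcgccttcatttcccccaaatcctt
Col6a3: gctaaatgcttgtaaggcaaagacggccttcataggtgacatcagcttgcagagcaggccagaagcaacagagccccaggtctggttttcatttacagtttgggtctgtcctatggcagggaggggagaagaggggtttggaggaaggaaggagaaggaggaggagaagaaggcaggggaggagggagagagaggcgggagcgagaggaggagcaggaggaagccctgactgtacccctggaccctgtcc
Col1a2 holds a CCAAT box whose first base is 109 bases before the start and GC boxes at 188 and 205 bases. Col3a1 holds a TATAAA at 117 bases and none of the other motifs. Col5a1 holds GC boxes at 73 bases and, on the opposite strand, at 205 bases, and Col27a1 holds a GC box at 85 bases. The window of Col6a3 held none of the 4 motifs. The fibrillar chains that rose thus did not share 1 of these motifs in the windows shown.

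The basement membrane collagens were called in both directions. Of 6 measured, Col4a1, Col4a2, Col4a3 and Col4a5 rose, Col4a6 fell and Col4a4 was not called. Col4a3 and Col4a5 passed the filter only through KO arrays, and their calls were lost with normexp background correction, as given with their values. Their summed signal was 5.0 to 5.13 on WT vehicle arrays, 9.41 to 9.50 on WT ENU, 16.6 to 16.7 on KO vehicle and 18.4 to 19.0 on KO ENU.

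Col4a1 and Col4a2 encode the chains of the common type IV network found in nearly all basement membranes. Col4a1 had 0.64 and 0.63 in WT vehicle, 1.93 and 1.91 in WT ENU, 3.11 and 3.14 in KO vehicle, and 3.38 and 3.35 in KO ENU. Col4a2 had 0.58 and 0.70, then 1.72 and 1.77, then 2.66 and 2.67, and last 2.76 and 2.67, in the same order. For both genes the order of the groups was WT vehicle, WT ENU and then the KO groups, and no KO array overlapped a WT array. Col4a1 was 5.59-fold higher in KO than in WT with vehicle and 2.72-fold with ENU (limma adjusted p = 0.0235), and Col4a2 was 4.08-fold and 1.95-fold higher (limma adjusted p = 0.0389). Second probes were 2.52-fold and 1.77-fold higher for Col4a1, and 2.99-fold and 2.33-fold higher for Col4a2.

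The pair is also a neighbour pair: Col4a1 and Col4a2 are transcribed on opposite strands from starts 21 bases apart on chromosome 8 (GRCm38.p6). The starts are placed so that the first bases of both transcripts overlap. Windows in the promoter table run from 250 bases before the start to 50 after it, and those of the pair share 78 bases. The 30 bases around both starts, chr8:11312801-11312830 on the plus strand, are shown because a single short stretch holds the starts of both chains. Capitals run from the start of Col4a2 on the plus strand to the start of Col4a1 on the minus strand.
Col4a1 and Col4a2 starts: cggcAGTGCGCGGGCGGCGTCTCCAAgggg
Col4a5 and Col4a6 are a second neighbour pair on opposite strands, on the X chromosome. Their starts are 1343 bases apart and they are transcribed away from each other without overlap. There the neighbours were called in opposite directions, but Col4a5 passed the filter only through KO arrays and its call was lost with normexp. No contrast between the pairs is therefore drawn.

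Col4a6 had -1.17 and -0.85 in WT vehicle, -1.04 and -0.85 in WT ENU, -1.91 and -1.89 in KO vehicle, and -2.34 and -2.13 in KO ENU. It was 1.86-fold and 2.45-fold lower in KO (limma adjusted p = 0.0303). A second, dim probe of Col4a6 was at least 1.29-fold and 1.85-fold higher in KO, and averaging the probes turned the mean difference to 0.19. That probe passed the filter only through KO arrays, so its sign was set by the filter. Col4a5, a chain of the mature glomerular network, had -3.08 and -6.10 in WT vehicle, -5.02 and -4.74 in WT ENU, -2.77 and -3.99 in KO vehicle, and -3.50 and -3.49 in KO ENU. The WT vehicle arrays disagreed by more than the genotypes did, and only 1 of 2 WT arrays in each treatment was well above background. Col4a5 was 2.31-fold and 2.61-fold higher in KO (limma adjusted p = 0.0193). Without WT vehicle b the vehicle difference was -0.31 and the adjusted p was 0.412, without KO vehicle a it was 0.0585, and with normexp background correction it was 0.483.

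Col4a3 was well above background on all KO arrays and on no WT array. It had -6.10 and -6.72 in WT vehicle, -6.65 and -6.87 in WT ENU, -4.12 and -4.00 in KO vehicle, and -4.12 and -4.18 in KO ENU. It was at least 1.06-fold higher in KO than in WT with vehicle and at least 1.53-fold with ENU (limma adjusted p = 0.0104, and 0.498 with normexp). Here and below, at least means that the bright group was set against the higher of the dim probe and the dimmest signal well above background on each array. These bounds hold for the main processing. With normexp the KO minus WT differences of Col4a3, Col8a2, Col22a1 and Lox lay below them in both treatments. Col4a4, the partner chain of Col4a3, was 1.19-fold and 1.13-fold lower in KO and was not called (limma adjusted p = 0.401). A second Col4a4 probe was dim on all WT arrays and at least 2.63-fold and 4.63-fold higher in KO. It passed the filter only through KO arrays, so its sign was set by the filter. No direction is given for Col4a4.

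Type VI collagen, which forms beaded filaments between fibrils and cells, rose in all 3 measured chains. Col6a3 had 0.07 and 0.02 in WT vehicle, 0.30 and 0.31 in WT ENU, 3.47 and 3.42 in KO vehicle, and 3.21 and 3.02 in KO ENU. It was 10.5-fold higher in KO than in WT with vehicle and 7.0-fold with ENU (limma adjusted p = 0.0102). Its window upstream of the start, shown above, held none of the searched motifs. Col6a1 had -0.94 and -1.04, then -0.39 and -0.36, then 0.68 and 0.68, and last 1.26 and 1.23, in the same group order. It was 3.18-fold and 3.09-fold higher (limma adjusted p = 0.0134). Col6a2, whose gene neighbours Col6a1 on chromosome 10, had -2.28 and -1.99, -2.17 and -2.06, -0.69 and -0.66, and -0.59 and -0.57, and was 2.74-fold and 2.90-fold higher (limma adjusted p = 0.0153). Col6a1 and Col6a2 thus had like folds in both treatments, and the differences between the type VI chains were not tested.

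Among the fibril-associated collagens, which sit on the surface of fibrils, Col14a1, Col16a1 and Col22a1 rose, Col20a1 fell and Col9a2 was not called. Col16a1 had 0.02 and 0.01 in WT vehicle, 0.52 and 0.37 in WT ENU, 2.36 and 2.34 in KO vehicle, and 2.31 and 2.34 in KO ENU. It was 5.03-fold and 3.69-fold higher in KO (limma adjusted p = 0.0124). Col14a1 was 2.23-fold and 2.06-fold higher (limma adjusted p = 0.0245). Col20a1 had -2.39 and -2.15, -2.06 and -1.88, -3.02 and -3.42, and -3.68 and -3.86, and was 1.93-fold and 3.48-fold lower in KO (limma adjusted p = 0.0350). Without KO vehicle b its adjusted p was 0.0540. Col22a1 was dim on all WT arrays and at least 1.68-fold and 1.35-fold higher in KO (limma adjusted p = 0.0320). Its adjusted p was 0.0508 with quantile normalization, 0.0575 without WT ENU a and 0.926 with normexp. With normexp the differences of Col22a1 were 0.15 on vehicle and -0.11 after ENU in log2 units.

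Of the network and anchoring collagens, both chains of type VIII rose. Type VIII is a short-chain collagen of vessel walls and of basement membranes such as that of the cornea. Col8a1 had -2.42 and -2.42 in WT vehicle, -0.74 and -0.80 in WT ENU, 0.72 and 0.72 in KO vehicle, and 0.81 and 0.84 in KO ENU. The KO groups lay together and the WT groups lay apart, so Col8a1 was 8.83-fold higher in KO than in WT with vehicle and 3.02-fold with ENU (limma adjusted p = 0.0280). Col8a2 was dim on all WT arrays and at least 1.23-fold and 2.06-fold higher (limma adjusted p = 0.0235). With normexp its adjusted p was 0.799 and the vehicle difference was -0.04. The anchoring fibril collagen Col7a1 differed by -0.02 and -0.11 log2 units and was not called.

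The multiplexins are basement membrane proteoglycans, and neither Col15a1 nor Col18a1 was called. Col15a1 had -3.68 and -3.83 in WT vehicle, -1.97 and -2.08 in WT ENU, -1.32 and -1.36 in KO vehicle, and -1.50 and -1.51 in KO ENU. It was 5.32-fold higher in KO than in WT with vehicle and 1.43-fold with ENU (limma adjusted p = 0.0989). The residual of the fit is the gap between the KO differences of both treatments, so a gene whose difference depends on treatment is less readily called. Under normexp the vehicle difference of Col15a1 was 1.09 in place of 2.41 log2 units. Col18a1, the precursor of endostatin and a collagen that hepatocytes themselves make, had 7.41 and 7.43 in WT vehicle, 7.01 and 6.99 in WT ENU, 7.07 and 7.05 in KO vehicle, and 7.02 and 7.02 in KO ENU. It was 1.29-fold lower in KO than in WT with vehicle and 1.01-fold higher with ENU (limma adjusted p = 0.537), and under quantile normalization its mean difference was 0.59. The transmembrane collagen Col13a1 was 1.21-fold and 1.81-fold lower in KO and was not called (limma adjusted p = 0.136).

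The lysyl oxidases rose in 4 of 5 measured genes, with Lox passing the filter only through KO arrays. Their summed signal was 0.882 to 0.955 on WT vehicle arrays, 1.99 to 1.99 on WT ENU, 7.66 to 7.80 on KO vehicle and 10.3 to 10.5 on KO ENU. Loxl1, which crosslinks elastin and fibrillar collagen, had -2.35 and -2.54 in WT vehicle, -1.26 and -1.26 in WT ENU, 0.82 and 0.79 in KO vehicle, and 1.62 and 1.55 in KO ENU. The genotypes did not overlap, and the ENU arrays of each genotype lay above its vehicle arrays. Loxl1 was 9.52-fold and 7.21-fold higher in KO (limma adjusted p = 0.0100), and under normexp its vehicle difference was 2.50 in place of 3.25 log2 units.

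Loxl2, which acts on the type IV network as well as on fibrils, had -0.65 and -0.68 in WT vehicle, 0.52 and 0.50 in WT ENU, 2.53 and 2.50 in KO vehicle, and 2.81 and 2.82 in KO ENU. It was 9.09-fold higher in KO than in WT with vehicle and 4.96-fold with ENU (limma adjusted p = 0.0127). Its second probe was 11.6-fold and 5.40-fold higher.

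Lox, the founding member, was well above background on all KO arrays and on no WT array. It had -6.11 and -5.97 in WT vehicle, -6.61 and -6.01 in WT ENU, -3.11 and -3.02 in KO vehicle, and -2.28 and -2.23 in KO ENU. It was at least 2.13-fold higher in KO than in WT with vehicle and at least 5.68-fold with ENU (limma adjusted p = 0.0116, and 0.0589 with normexp). With normexp the differences of Lox were 0.37 and 1.03 log2 units, below these bounds of 1.09 and 2.50. Loxl3 had -3.41 and -4.03, -3.85 and -3.96, -2.94 and -2.96, and -3.13 and -3.26, and was 1.70-fold and 1.64-fold higher in KO (limma adjusted p = 0.0490). That call was lost under both other scalings, with normexp, without the filter on dim probes, and when any of 4 arrays was left out (KO ENU a, KO vehicle b, WT ENU b or WT vehicle b), with adjusted p of 0.0515 to 0.648.

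Loxl4 was the lysyl oxidase that did not rise. It had -6.14 and -6.62 in WT vehicle, -3.86 and -3.59 in WT ENU, -6.47 and -7.21 in KO vehicle, and -4.99 and -5.06 in KO ENU. Only the WT ENU arrays were both well above background, which is how Loxl4 passed the filter. After ENU it was 2.46-fold lower in KO than in WT, and over both treatments it was not called (limma adjusted p = 0.0827). With median centring, with normexp, or without KO vehicle a or WT vehicle b, Loxl4 passed as lower, with adjusted p of 0.0334 to 0.0493.

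The probes of a gene were set against each other where more than 1 passed. There were 18 such genes with 39 probes. In 12 genes all probes gave the same sign of KO minus WT in both treatments, and in 6 they did not (Col2a1, Col3a1, Col4a4, Col4a6, Col11a2 and Col27a1). For Col4a4 and Col4a6 the probe that was higher in KO passed only through KO arrays, so its sign was set by the filter. Of the 11 genes that rose and had more than 1 passing probe, 10 had every probe higher in KO in both treatments. However, 1 probe each of Col1a1, Col6a2, Col6a3, Col8a1 and Col16a1 was dim on all WT arrays and passed only through KO arrays. Their sign was therefore set by the filter and adds no support, and the Col16a1 probe has no fold. The second Col14a1 probe was dim in WT vehicle and well above background on only 5 arrays, so it adds no support either. The exception among the 11 genes was Col3a1, which had a probe, designed on a single cDNA (AK031544), that was 1.92-fold and 1.50-fold lower in KO. Its other 2 probes were higher. Of these, the dimmer probe was also dim in WT vehicle and well above background on only 5 arrays, and it adds no support.

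**Figure D3:**
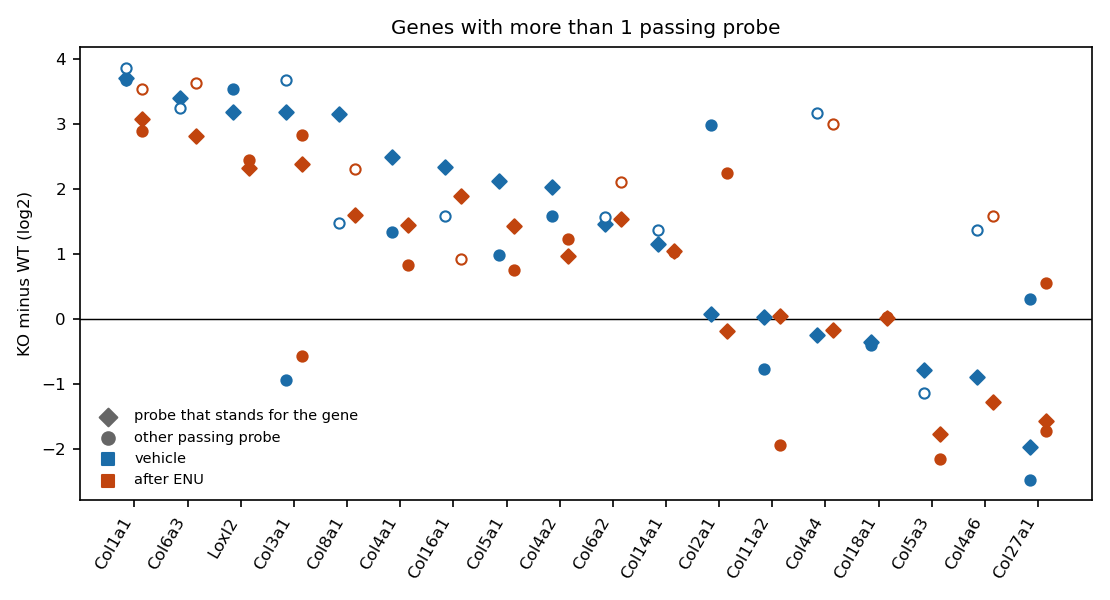
KO minus WT log2 difference of every passing probe of the 18 genes with more than 1 such probe, on vehicle (blue) and after ENU (orange); diamonds are the brightest probe, which stands for the gene, and open symbols mark a comparison with a dim group. The 3 probes of Col1a1 lie between 2.88 and 3.86, while Col2a1, Col4a4 and Col4a6 have a second probe above 1 beside a first probe near or below 0.

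Members were also counted within each treatment. At the 2-fold mark, 21 members were higher in KO and 1 was lower on vehicle, where 17.3% of all measured genes were higher and 11.1% lower. With dim genes at their bounds the count higher was 18. After ENU 18 members were higher (17 with bounds) and 5 lower (Col4a6, Col5a3, Col20a1, Col27a1 and Loxl4), where 16.2% and 14.2% of genes were. Centring arrays on their median in place of the 75th percentile moved the median of all genes on vehicle from -0.14 to -0.37, and the split of members on vehicle was then 18 higher and 4 lower.

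Of the 21 members that rose, 16 (76.2%) had the smaller KO minus WT difference after ENU, and Lox, Col4a3, Col4a5, Col6a2 and Col8a2 had the larger one. Lox, Col4a3, Col8a2 and Col22a1 were dim in WT, so their differences are not exact. Of the other 17, with a measured fold in both treatments, 15 had the smaller KO difference after ENU, and their median difference was 2.33 log2 units with vehicle against 1.63 with ENU. Among all 3064 genes that rose in KO, 60.4% had the smaller difference after ENU. The KO difference after ENU minus that on vehicle was -1.55 log2 units for Col8a1, -1.06 for Col4a2, -1.04 for Col4a1 and -0.88 for Loxl2. Whether the narrowing depends on ENU, on the slide or on the RNA samples taken was not tested.

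ENU was set against vehicle next, as the labels imply the question of how a genotoxic dose acts in each genotype. The limma fit over both genotypes called 0 of 18137 genes either way (0% higher and 0% lower). At an unadjusted p under 0.05 there were 3992 genes, of which 6 were members, and the lowest adjusted p of any gene was 0.158. In WT, 8 members were at least 2-fold higher after ENU and 1 was lower, where 7.18% of genes were higher and 5.49% lower. With dim genes at their bounds the count higher in WT was 7. In KO 1 member was at least 2-fold higher and 1 was lower, where 4.33% and 5.41% were. The member higher in KO was Loxl4, which was dim on both KO vehicle arrays, and with bounds the count higher was 0.

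The members higher after ENU in WT came from the multiplexin, network, basement membrane, fibrillar and lysyl oxidase groups. Col15a1 was 3.31-fold higher, Col8a1 3.14-fold, Col4a1 2.43-fold, Col5a2 2.33-fold, Loxl1 2.27-fold, Loxl2 2.25-fold and Col4a2 2.16-fold, and Loxl4 was at least 1.34-fold higher. Second probes differed by 0.22 log2 units in WT for Col4a1, 0.73 for Col4a2 and 1.31 for Loxl2. With normexp the WT difference was 0.69 for Col15a1, 0.70 for Loxl1, 0.76 for Col5a2 and 0.30 for Loxl4, all under 2-fold, and 3 members stayed past 2-fold. With the mean of all probes it was 0.67 for Col8a1, 0.75 for Col4a1 and 0.92 for Col4a2, also under 2-fold. In KO the same genes were 1.12-fold lower for Col15a1 and higher by 1.08-fold for Col8a1, 1.18-fold for Col4a1, 1.51-fold for Col5a2, 1.72-fold for Loxl1, 1.23-fold for Loxl2 and 1.03-fold for Col4a2. Loxl4 was 1.81 log2 units higher in KO between dim arrays, and no fold is given. For the fibrillar collagens Col1a1 and Col1a2 the ENU difference in WT was 0.17 and 0.35 log2 units.

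Col11a2 was the member lower after ENU in both genotypes, 2.06-fold in WT and 2.04-fold in KO. It had -2.68 and -2.74 in WT vehicle, -3.72 and -3.79 in WT ENU, -2.60 and -2.77 in KO vehicle, and -3.68 and -3.74 in KO ENU. The groups split by treatment and overlapped by genotype. On its second probe ENU minus vehicle was 0.61 log2 units in WT and -0.55 in KO.

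**Figure D4:**
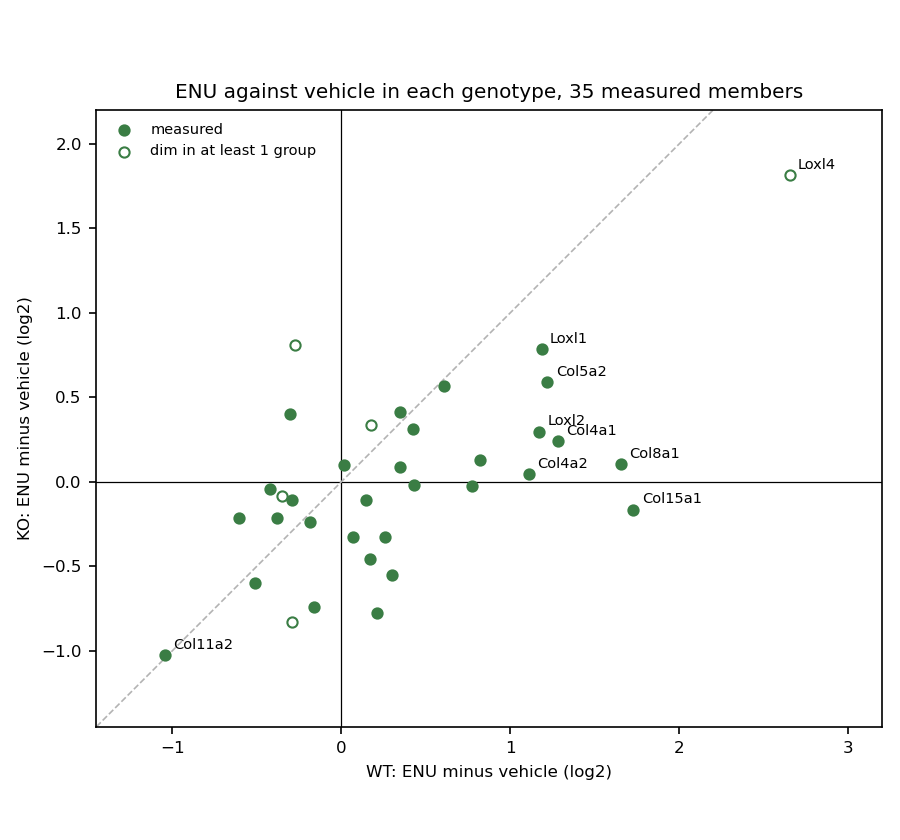
ENU minus vehicle log2 difference in WT (horizontal) and in KO (vertical) for the 35 measured members; the dashed line marks equal differences, open circles have a dim group, and members past 2-fold are named. Col15a1, Col8a1, Col4a1 and Col4a2 lie far to the right and near 0 on the vertical axis, and Col11a2 lies near -1 on both.

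Genes that process collagen outside the members were counted from lists of pathway genes. For these and the following lists, the shares over all measured genes were 16.9% that rose and 15.3% that fell. Of 15 measured genes for procollagen modification and folding 6 rose and 0 fell in KO. Plod2, the hydroxylase that prepares lysines for stable crosslinks, was 8.81-fold and 4.19-fold higher (limma adjusted p = 0.0159). The prolyl isomerase Fkbp10 was 6.81-fold and 4.58-fold higher (0.0115), and the collagen chaperone Serpinh1 was 5.04-fold and 3.03-fold higher (0.0171). Crtap, part of the prolyl 3-hydroxylation complex, was 2.84-fold and 2.80-fold higher (0.0152). The more general enzymes P4hb and Ppib, which also fold other secreted proteins, had 1.83-fold and 1.63-fold lower signal in KO with vehicle, and neither was called. After ENU 12 of the 15 genes of this list were higher in KO, against 9 with vehicle, and the lowest difference was -0.45 log2 units.

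Of 6 measured genes for export and cleavage of procollagen 3 rose and 0 fell. Adamts2, which removes the amino-terminal propeptide, was 4.02-fold and 3.75-fold higher (limma adjusted p = 0.0115), and Pcolce, which enhances removal of the carboxy-terminal propeptide, was 4.86-fold and 4.43-fold higher (0.0104). Adamts3, a relative of Adamts2, was at least 1.59-fold higher on vehicle (0.0349). The carboxy-proteinase Bmp1 itself was 1.57-fold lower on vehicle and was not called.

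Of 8 measured collagen receptors 3 rose and 1 fell. Ddr1, a receptor tyrosine kinase for collagen found mainly on epithelial cells, was 29.2-fold and 28.9-fold higher in KO (limma adjusted p = 0.00973). Mrc2, which takes up collagen fragments, was 8.01-fold and 9.56-fold higher (0.0100), and the integrin Itga11 was 3.56-fold and 3.23-fold higher (0.0128). Itga10 fell, at 1.82-fold and 1.30-fold lower (0.0385). Ddr2, the relative of Ddr1 on mesenchymal cells, was 1.72-fold and 3.67-fold higher and just missed the threshold (0.0504).

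Of 15 fibril partners and elastic fibre genes 11 rose and 0 fell. The basement membrane linker Nid1 was 14.3-fold and 11.9-fold higher in KO (limma adjusted p = 0.0100), the microfibril protein Fbn1 was 8.39-fold and 6.10-fold higher (0.0103), and the fibril-binding proteoglycan Lum was 7.17-fold and 7.38-fold higher (0.0100). The type IV partner Lamc1 was 5.61-fold and 4.30-fold higher (0.0111). Bgn, Dcn, Fmod and Postn, which also bind fibrils, were not called, with Dcn 1.44-fold and 1.52-fold higher (0.0851).

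Markers of the cells of the liver were counted in the same way, where 16.9% of all measured genes rose and 15.3% fell. Of 14 measured stellate cell markers 5 rose and 0 fell in KO, among them the growth factor receptors Pdgfra (4.78-fold and 4.56-fold higher, limma adjusted p = 0.0104) and Pdgfrb (3.79-fold and 2.99-fold, 0.0140) and the filament gene Vim (4.94-fold and 3.47-fold, 0.0133). The stellate markers Acta2, Des and Lrat were not called, Gfap was not measured, and the summed signal of the list was 108 to 110 on WT vehicle, 105 to 105 on WT ENU, 82.1 to 82.3 on KO vehicle and 130 to 131 on KO ENU arrays. The median KO minus WT difference of the list was 0.57 log2 units on vehicle and 0.95 after ENU, with 10 and 12 of its 14 genes higher in KO, so its sum and its median differ in direction on vehicle. Of 7 portal fibroblast markers 5 rose and 0 fell, with Cd34 9.45-fold and 4.88-fold (0.0134) and Thy1 4.30-fold and 3.14-fold higher (0.0140). Their summed signal was 10.6 to 10.6, 12.1 to 12.3, 35.5 to 37.4 and 26.0 to 26.7 in the same order, Gli1 was not measured, and Eln is also among the fibril partners.

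Of 10 cholangiocyte and progenitor markers 9 rose and 0 fell, with a summed signal of 6.85 to 7.0, 9.48 to 9.61, 68.5 to 69.6 and 67.6 to 67.8 in the same order, and Cftr was not measured. Of 15 macrophage markers 11 rose and 0 fell (86.1 to 87.3, 144 to 147, 216 to 217 and 371 to 376). Over all measured genes 16.9% rose and 15.3% fell. On both WT vehicle arrays 2 of the cholangiocyte and progenitor markers and 3 of the macrophage markers were dim, so their vehicle differences are not exact. Of 16 liver endothelial markers 0 rose and 1, Lyve1, fell, with sums of 85.3 to 85.5, 97.6 to 99.9, 78.7 to 80.6 and 73.1 to 75. Of 14 hepatocyte markers 0 rose and 11 fell, with sums of 3424 to 3485 and 3237 to 3359 in WT and 1908 to 2001 and 1808 to 1840 in KO. The part of these cell types in the collagen and lysyl oxidase values was not tested.

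**Figure D5:**
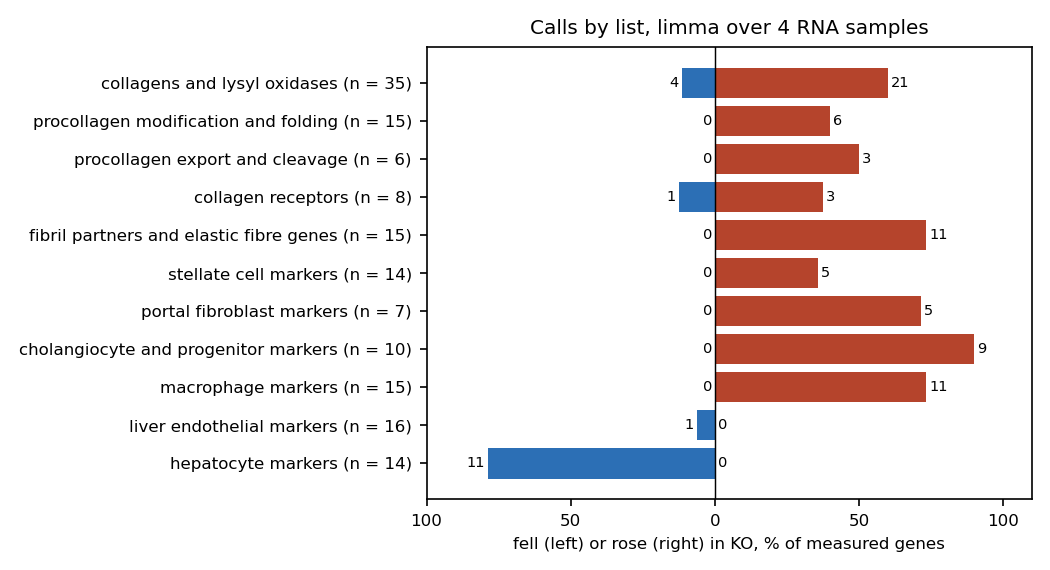
Share of the measured genes of each list that fell (blue, left) or rose (red, right) in KO in limma over 4 RNA samples, with the counts at the bar ends and the number measured after the name. Of the collagen and lysyl oxidase genes 21 of 35 rose and 4 fell, 9 of 10 cholangiocyte and progenitor markers rose, and 11 of 14 hepatocyte markers fell. Over all measured genes 16.9% rose and 15.3% fell.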

How the data were processed

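Liver RNA was measured on 8 Agilent 1-colour arrays, 2 for each of 4 groups. The scans were read with Agilent Feature Extraction, version 10.7.1.1 per the file headers and 10.5.1 per the submitters' processing notes. Its deposited intensity used here is the processed signal, from which background was already removed; mean spot intensity and local background served an alternative. Positions of probes are given on mm7 (NCBI35), per the file headers.

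Each array's 75th percentile of log2 processed signal was subtracted from it, with control and outlier spots left out. Replicate spots were averaged, and the brightest probe that passed the filter stood for a gene. Probe names of other genes were updated through a RefSeq table of GRCm38.p6, by accession for 22951 probes, by symbol for 6659 and by synonym for 3109, while 8455 kept their name. The a and b arrays were averaged per group. The 4 RNA samples were fitted with genotype and treatment as terms in limma 3.58.1 (R 4.3.3), with 1 residual degree of freedom, which limits precision as the number of arrays does. Tested on simulated data, the fit made calls where about as many genes changed as were called between the genotypes, and made none where few genes changed, so a count of 0 calls for ENU does not show that genes did not differ. Alternatives were normexp (offset 50), quantile normalization, median centring, other filters, the mean of all passing probes and leaving out each array.

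All measured fibrillar and basement membrane collagens and lysyl oxidases were named. Of other classes those past 2-fold in any comparison were named in full, and of other lists up to 4 genes that passed limma in each direction, plus uncalled relatives chosen after their values were seen. Members and lists were chosen with earlier results of these data known.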

Additional observations from a re-analysis of the deposited data

Results flagged for a closer look

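For 6 members ENU minus vehicle had opposite signs in the genotypes, with both ENU arrays on one side of both vehicle arrays in WT and on the other side in KO. Because arrays a and b count as 1 RNA sample, small differences also separate the arrays. The share of all genes with this pattern is not given, so the count shows nothing particular to the members. For Col15a1 ENU minus vehicle was 1.73 log2 units in WT and -0.17 in KO. For Col1a1 it was 0.17 and -0.46, for Col6a3 0.26 and -0.33, for Col5a3 0.21 and -0.78, for Col20a1 0.30 and -0.55, and for Col2a1 0.15 and -0.11. These differences between genotypes were not tested, since each group is 1 RNA sample. Only Col15a1 passed 2-fold in a genotype.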

How the results depend on the processing

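The 21 members called higher and 4 called lower in KO became 15 to 23 and 3 to 5 over all alternatives, and 0 members were called for ENU in each of them. The counts past 2-fold moved for several comparisons. With normexp, ENU in WT had 3 higher and 0 lower and ENU in KO had 0 and 0. On vehicle the members lower in KO numbered 3 with quantile normalization, 4 with median centring and 3 without a filter. Without a filter ENU in WT had 2 lower and ENU in KO had 4 higher and 2 lower. With probes above background on all 8 arrays, ENU in KO had 0 higher. With the mean of all probes, 3 members were lower in KO after ENU, ENU in WT had 5 higher and 0 lower, and ENU in KO had 0 lower. Leaving out 1 array gave 1 to 3 members lower in KO on vehicle (3 without WT vehicle a), 1 to 2 lower with ENU in WT (2 without WT vehicle b) and 0 to 1 lower with ENU in KO (0 without KO ENU b or KO vehicle a). Of 2420 values of single members under alternatives, 12 reversed. The mean KO difference of Col11a2 was -0.23 with normexp, -0.15 with quantile normalization, -0.17 with median centring, -0.66 with the mean of all probes and -0.0077 (without KO vehicle a) to 0.075 with 1 array left out. With the mean of all probes it was 1.28 for Col2a1, 1.43 for Col4a4 and 0.19 for Col4a6, and after ENU 0.14 for Col4a6. The means of Col4a4 and Col4a6 include a probe that passed the filter only through KO arrays. Col18a1 had 0.59 with quantile normalization. On vehicle Col8a2 had -0.036 with normexp and Col4a5 had -0.31 (without WT vehicle b) to 2.72 (without WT vehicle a) with 1 array left out. The cause of these moves was not tested. Calls of 15 members that rose held under normexp. Over all genes, 3064 rose and 2780 fell, against 2403 and 4169 with normexp, 2723 and 1928 with quantile normalization and 2740 and 4893 with median centring. No paired analysis was possible because the a and b arrays were counted as 1 RNA sample, and slide coincides with treatment, which the fit already holds. Signal near background limits Col4a3, Col4a5, Col8a2, Col22a1, Lox, Loxl3 and Loxl4.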
